A study of Mus musculus with 2 samples.

Results

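Small RNAs annotated to LTR retrotransposons were examined in fetal mouse liver at stage E18.5. The members were all distinct reads of the authors' deposited table whose repeat annotation begins with the class LTR, which gave 43174 of the 2344366 distinct sequences in the table. Total RNA of the livers (strain B6/129) was separated on a gel into a fraction of 19 to 30 nt, ligated to adapters, amplified and sequenced. There was 1 library of wild type mice and 1 library of Ago2ADH mice, whose Argonaute 2 carries a change that removes its catalytic activity. The labels do not say how many livers went into each library. With 1 library per genotype no difference below has a replicate check, and every comparison is between these libraries and not between the genotypes.

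LTR retrotransposons are genomic elements that resemble retroviruses. Each copy has an internal region (names ending in -int) between a pair of long terminal repeats, and many copies have recombined to a lone terminal repeat. Their RNA is copied into DNA by a reverse transcriptase that starts from the 3′ end of a host transfer RNA (tRNA) paired to the primer binding site of the element. In mouse germ cells piRNAs silence such elements, in oocytes Dicer-dependent endogenous siRNAs do so as well, and in most somatic cells their terminal repeats are kept silent by the KRAB zinc finger, Trim28 and Setdb1 system and by DNA methylation. Argonaute 2 is the mouse Argonaute that cleaves a well paired target in mammalian somatic cells.

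A selection of the 26 LTR sequences with 100 or more reads is printed first, chosen after their values were seen, because their sequences bear on what the class holds. Most of the printed reads end in CCA, as do 7 of the 26. The selection does not show every kind of longer read, and those from RefSeq transcripts are missing from it. It is not the top of the list: RLTR25B, RLTR15, ORR1B1 and ETnERV2-int reads (331, 165, 165 and 157 reads over both libraries), for example, are not printed. Each is given 5′ to 3′ inside the longer read of the same table that contains it, with the LTR read in capitals and the flanking bases of the longer read in lower case.

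ORR1E, within a read that the table leaves without annotation: AAAGGTTTGGTCCTGgcct
RLTR1B-int, within a read assigned to Rn28s1: tccGGAGCGGGAGGAACC
RLTR1B-int, form ending in CCA, within a read assigned to Rn28s1: ttccGGAGCGGGAGGAACCA
RLTR44E, within a read without annotation: tcgctggttcgttTCCGGCTCGAAGGACCA
MLT1B, within a read without annotation: tcGTTTCCCGGTCAGGG
ORR1A2-int, within a read of the SINE B3: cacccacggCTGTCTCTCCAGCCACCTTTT
RLTR44C, within a read without annotation: ttggtggttcgagcCCACCCAGGGACGCCA
ORR1D1, within a read without annotation: ctCCTGGCTGGCTCGCCA
LTRIS_Mm, within a read without annotation: tcgcgggttcgaTCCCCGTACGGGCCACCA
RLTR6_Mm, within a read without annotation: tcgttTCCCGGCCCATGCACCA

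The ORR1E read was the LTR sequence with most reads, 483 in the wild type and 1145 in the Ago2ADH library (63.6 and 162 RPM, that is reads per 1000000 reads of the library). It is 15 nt long, matches 14 genomic places and equals the first 15 bases of mt-Rnr1, the small ribosomal RNA of mitochondria, in the GENCODE transcripts. The RLTR1B-int read of 15 nt came second, with 918 wild type and 393 Ago2ADH reads (121 and 55.8 RPM). The 12336 reads that contain it include reads that the table names Rn28s1, the large ribosomal RNA of the cytoplasm. The RLTR44E read had 381 and 362 reads (50.1 and 51.4 RPM), and its bases before the CCA are those of reads annotated to tRNA-Tyr.

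Depth and tissue bear on all values. The libraries held 7599870 wild type and 7046197 Ago2ADH reads, so that 1 read equalled 0.132 and 0.142 RPM, and a count of 0 allows up to 0.395 and 0.426 RPM (3 counts). Intervals in brackets are 95% and exact, and cover counting error only, since amplified reads without molecular identifiers are not independent molecules. Fragments of hepatocyte marker mRNAs were found for all 10 listed genes, with 12409 and 13002 RPM in sum, of which Alb had 40362 and 36365 reads. Fragments of 10 erythroid marker genes summed to 1825 and 1177 RPM (log2 ratio, Ago2ADH over wild type, -0.63, -0.67 to -0.59), and no gene of these lists met the size rule given below. Most erythroid reads were of the globin genes Hba-a2 (9129 and 5225) and Hbb-b2 (3413 and 2106). Tfrc alone of the erythroid genes had a positive ratio (178 and 229 reads, 0.47, 0.18 to 0.76). Germ cell markers were near 0, with 23 and 15 reads over 6 genes and none for Dazl. In a bulk sample fewer cells of a type and less RNA per cell cannot be told apart, and the part of the erythroid difference in the LTR values was not tested.

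LTR reads made up 0.481% of the wild type and 0.464% of the Ago2ADH library. The counts were 36593 and 32690 reads, or 4815 and 4639 RPM, and the log2 ratio, Ago2ADH over wild type, was -0.05 (-0.08 to -0.03). LINE, the other large class of retrotransposons, gave 0.11 (0.10 to 0.13), the non-autonomous SINE class -0.04 (-0.06 to -0.02) and DNA transposons 0.02 (-0.04 to 0.08). The LTR class as a whole therefore differed by a few percent between the libraries, and the sign of that difference changed with the reads kept: it was 0.01 (-0.03 to 0.04) for reads of 19 nt or longer.

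The class was made up of rare sequences. Of the 43174 distinct reads, 82.5% had 1 read over both libraries and 4.38% were found in both. At the other end, 26 sequences with 100 or more reads held 11.9% of all LTR reads, and the 10 with most reads held 8.76%. Reads matched a median of 5 genomic places, up to 110551. Reads with 1 match made up 21.6% (21.2 to 22) of wild type and 21.5% (21.1 to 22) of Ago2ADH LTR reads, so that most LTR reads cannot be placed at 1 copy. A read with several matches carries 1 repeat name in the table, and that name need not be the only repeat it matches.

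A large share of LTR reads lay whole within longer reads of other classes. Such contained reads were 44.7% (44.2 to 45.3) of LTR reads in wild type and 46.0% (45.5 to 46.5) in Ago2ADH. The share was 61.9% and 66% at 15 to 18 nt and 6.47% and 7.31% at 25 to 30 nt. A longer read is needed and the table ends at 34 nt, so the share declines with length by construction. A sequence can lie in longer reads of several classes, and each was counted under the class with most of these reads. By this count, 50.4% of the contained reads fell to reads without annotation and 29.7% to RefSeq transcript fragments. Reads named for a transcript but with 0 genome matches, such as those of Rn28s1, took 10.7%, and SINE reads 7.47%. The contained share was 69.5% and 73.9% for LINE reads, 44.0% and 41.1% for SINE reads and 33.7% and 34% for DNA transposon reads, so containment was not particular to LTR.

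Containment was complete among the abundant LTR sequences. All 26 sequences with 100 or more reads were contained, 23 of them in longer reads with more reads in sum than their own, and 22 were shorter than 19 nt. All 154 sequences with 20 or more reads and 352 of 356 with 10 or more were contained. No LTR sequence that was not contained had more than 15 reads. Containment is a match of letters and does not show from which gene a read was made.

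Among the repeat names with most reads the contained share separated some elements from others, without a match for read length, on which containment depends by construction. RLTR1B-int, the internal region of an ERV1 element grouped here with MMERGLN, had 1774 and 1545 reads, of which 93.2% were contained, and 15.4 and 15.5 RPM without them. ORR1A2-int, of the MaLR family of old non-autonomous elements, had 1507 and 1470 reads, 89.7% of them contained, mostly in SINE B3 reads like the one printed above. ORR1E, also a MaLR, had 1270 and 1930 reads, and 74.4% were contained. By contrast, 10.3% of the 1167 and 1372 reads of MMVL30-int were contained. VL30 elements are virus-like genes whose RNA is packaged by mouse leukaemia viruses. IAPEz-int, the internal region of the intracisternal A particle (IAP), an element that still transposes in laboratory mice, had 604 and 683 reads, of which 3.73% were contained. RLTR4_MM-int, related to murine leukaemia virus, had 1005 and 745 reads, of which 9.83% were contained. These 3 internal regions gave reads from many sequences (2023, 1065 and 1475 distinct reads), and the most abundant sequence held 0.473%, 0.622% and 0.571% of the reads of its name. Read length differs between these elements. At 15 to 18 nt, over both libraries, 381 of 584 reads of all IAP names and 433 of 997 of VL30 were not contained. The same held for 181 of 3349 reads of MMERGLN and 2214 of 7960 of the names beginning with ORR1.

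**Figure D1:**
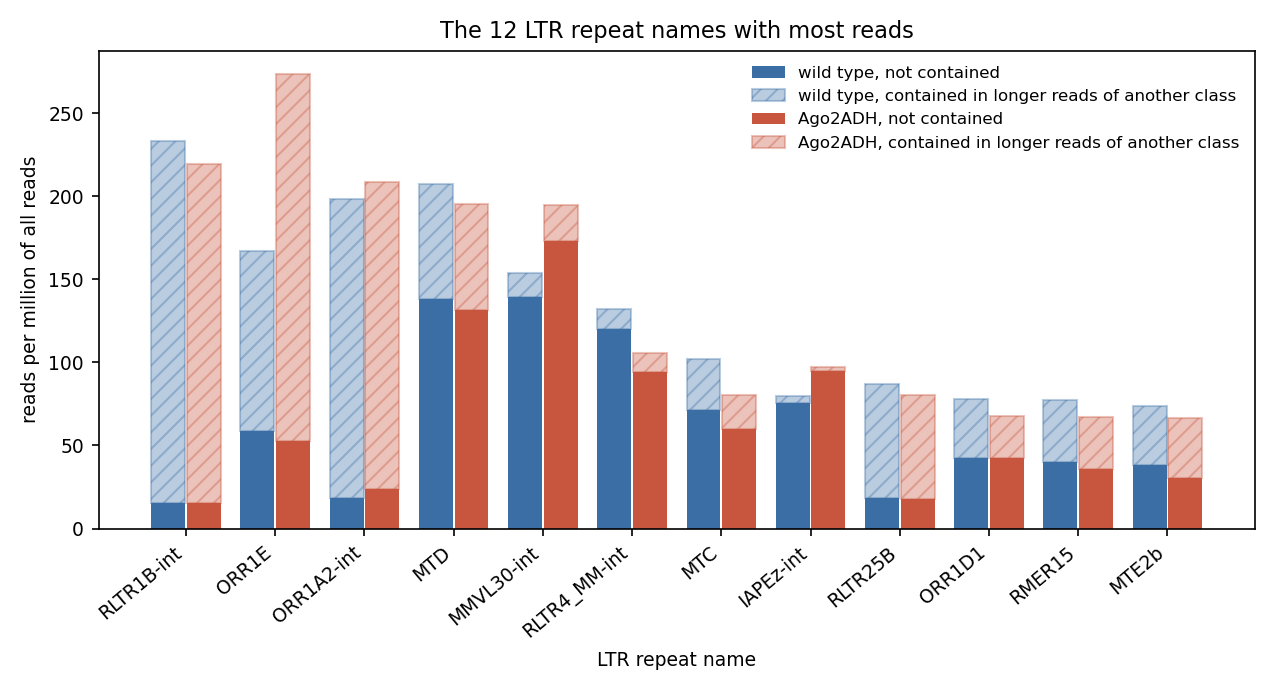
RPM for the 12 LTR repeat names with most reads, in the wild type (blue) and Ago2ADH (red) library, 1 library each and so without error bars. Solid bars are reads contained in no longer read of another class and hatched bars are contained reads, which make up 93.2% of RLTR1B-int but 3.73% of IAPEz-int. Names are not matched for read length.

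For MMVL30-int and IAPEz-int the reads that are not contained can be shown by the most abundant of them of 19 nt or longer, which match many copies. Each is written 5′ to 3′ in lower case with no part marked.

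MMVL30-int, 21 nt: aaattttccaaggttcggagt
MMVL30-int, 30 nt: atgtgtttaagagataacaaaaggggtgct
IAPEz-int, 21 nt: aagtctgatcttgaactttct
IAPEz-int, 23 nt: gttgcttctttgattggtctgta

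The first MMVL30-int read had 4 wild type and 1 Ago2ADH reads and matched 104 genomic places, and the second had 1 and 4 reads and 51 places. The first IAPEz-int read had 2 and 6 reads at 559 places. The second was not seen in wild type and had 6 reads in Ago2ADH, at 1489 places. No single sequence of these elements had enough reads for a comparison of its own.

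Repeat names were compared by a rule of size. A name was called where it had 100 or more reads over both libraries, differed by 2-fold or more and had an interval that leaves out equality. Of 429 LTR names, 141 had enough reads, and these held 88.5% of LTR reads. The rule called 0.709% of them (1 lower, 0 higher), against 1.69% of the 354 repeat names of all classes (0.565% lower, 1.13% higher) and 1.54% of all 4025 annotation names (0.547% lower, 0.994% higher). The median log2 ratio of the 141 names was -0.10, against -0.09 for the 354 repeat names and 0.01 for the 4025 annotation names. By their intervals alone, 33 LTR names (23.4%) lay below 0 and 7 (4.96%) above. The shares were 26% and 13.3% of the 354 repeat names, which include the LTR names, and 11% and 14.9% of the 4025 annotation names. They were 23.2% and 3.66% of the 82 LINE names and 31.25% and 6.25% of the 32 SINE names, so these shares were not particular to LTR.

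The name that met the rule was RMER21A, an ERV1 terminal repeat, with 272 wild type and 120 Ago2ADH reads (35.8 and 17 RPM, log2 ratio -1.07, -1.39 to -0.76). Of its reads 86.7% were contained. Without those it had 36 and 16 reads (-1.06, -2.01 to -0.17), too few for the rule. The call was also absent at 20 to 24 nt, at 25 to 30 nt (0.11, from 3 reads in each library) and with distinct sequences counted once (-0.30, -0.89 to 0.29). MMERGLN-int, the internal region of an ERV1 element, stood just short of the rule at 200 and 95 reads (-0.96, -1.33 to -0.61). Its reads were 24.4% contained, and without the contained ones the log2 ratio was -0.96 as well (151 and 72 reads, -1.39 to -0.55).

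The largest positive log2 ratios were 0.75 for IAPLTR1_Mm, an IAP terminal repeat (52 and 81 reads, 0.23 to 1.28), and 0.71 for ORR1E (0.61 to 0.82). For ORR1E the mitochondrial ribosomal sequence printed above held 50.9% of the reads, and without it the counts were 787 and 785 and the log2 ratio 0.11 (-0.04 to 0.25). In RLTR1B-int the most abundant read held 39.5% of the reads. The log2 ratio of that name was -0.09 (-0.19 to 0.01) with it and 0.54 (0.41 to 0.67) without it. In MLT1B, an old MaLR terminal repeat, the printed read held 37.2% of the reads, and the log2 ratio went from -0.75 (-0.99 to -0.51) to -0.02 without it. The ratios of these 3 names thus turned on 1 sequence each, and all 3 sequences are contained in longer reads of other classes.

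**Figure D2:**
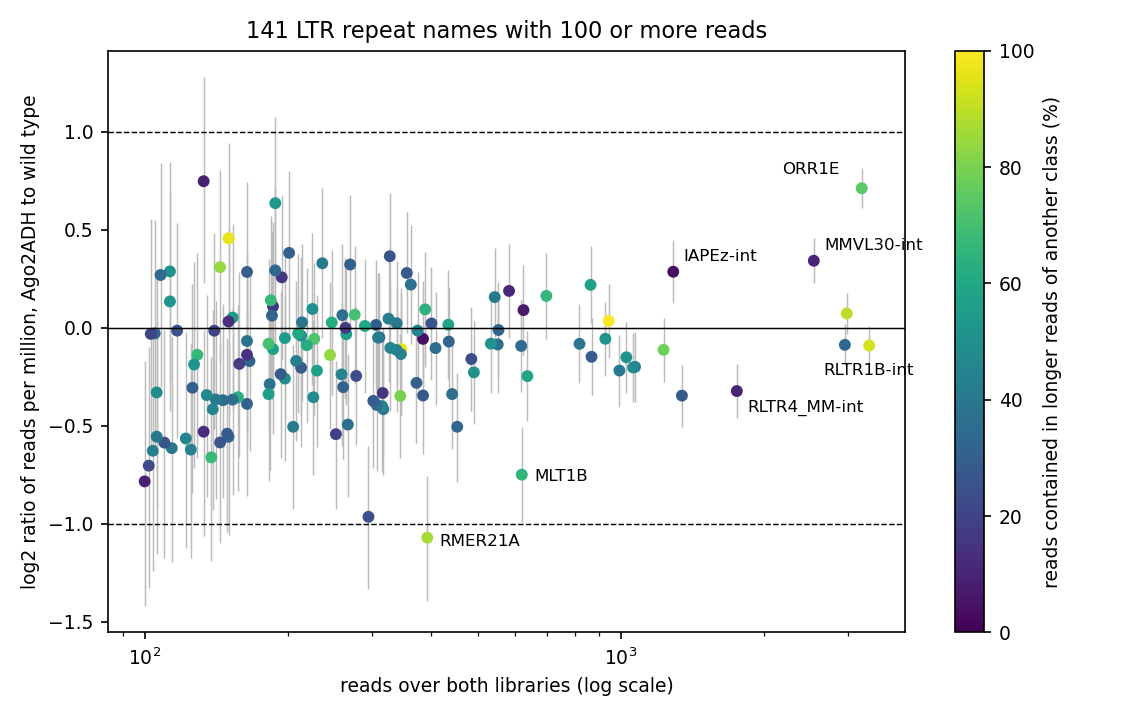
Log2 ratio of RPM, Ago2ADH to wild type, against reads over both libraries (log axis) for the 141 LTR repeat names with 100 or more reads. Bars are exact 95% counting intervals, dashed lines mark 2-fold differences, colour gives the percent of reads contained in longer reads of another class, and RMER21A at -1.07 is the name past a dashed line with an interval clear of 0.

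Single sequences differed more often than names. Of the 26 LTR sequences with 100 or more reads, 15.4% were called (11.5% or 3 lower, 3.85% or 1 higher), against 18.7% of all 6956 sequences of the table with that many reads (11.3% lower, 7.39% higher). The lower ones were the 15 nt read of RLTR1B-int (log2 ratio -1.11, -1.29 to -0.94), the MLT1B read (196 and 34 reads, -2.42, -2.99 to -1.89) and the ORR1D1 read ending in CCA (109 and 46 reads, -1.14, -1.67 to -0.63). The higher one was the ORR1E read (1.35, 1.20 to 1.51). The form of the RLTR1B-int read that is 1 base longer and ends in CCA went the other way, with 313 and 480 reads (0.73, 0.52 to 0.94). The longer Rn28s1 reads printed above behaved alike in number: 1834 and 506 reads for the one around the 15 nt read, and 373 and 572 reads for the one around the CCA form. The container of the MLT1B read had 237 and 42 reads.

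By family the LTR reads fell into 4 large groups. The MaLR family, old elements without genes of their own, had 14701 and 13541 reads (log2 ratio -0.01, -0.04 to 0.02). ERVK, which holds IAP, ETn and MusD, had 11001 and 9653 reads (-0.08, -0.12 to -0.04). ERV1, which holds VL30 and the leukaemia virus-like elements, had 7464 and 6636 reads (-0.06, -0.11 to -0.01). ERVL had 3337 and 2810 reads (-0.14, -0.21 to -0.07). None of these 4 families came near a 2-fold difference. ERV1 gave 0.28 (0.15 to 0.40) and MaLR 0.24 (0.15 to 0.34) at 25 to 30 nt, and at 19 nt or longer no interval of the 4 was clear of 0. The small Gypsy family had 32 and 8 reads (-1.89, -3.22 to -0.74), too few for the rule.

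Groups of elements differed more than families, and in both directions. VL30 had 1749 and 2008 reads (230 and 285 RPM, log2 ratio 0.31, 0.22 to 0.40), and each of its 3 names had a positive ratio: MMVL30-int 0.34 (0.23 to 0.46), RLTR6_Mm 0.22 (0.02 to 0.42) and RLTR6-int 0.28 (-0.03 to 0.59). IAP had 958 and 1053 reads (126 and 149 RPM, 0.25, 0.12 to 0.37), with IAPEz-int at 0.29 (0.13 to 0.45), IAPLTR1_Mm at 0.75 and IAPEY3-int at 0.03 (-0.45 to 0.51). The murine leukaemia virus-like group had 1509 and 1212 reads (199 and 172 RPM, -0.21, -0.32 to -0.10). Within it RLTR4_MM-int gave -0.32 (-0.46 to -0.18) and its terminal repeat RLTR4_Mm -0.33 (-0.67 to -0.00), while MuLV-int gave 0.19 (-0.05 to 0.43). None of these groups or names met the 2-fold rule.

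The remaining groups lay between these or below 0. By their intervals, 8 of the 13 groups lay below 0 and 3 above (VL30, IAP and the ORR1 kind of MaLR). The ORR1 kind had 6620 and 6671 reads and a log2 ratio of 0.12 (0.07 to 0.17). Without contained reads its ratio was -0.10 (-0.18 to -0.02), whereas VL30 gave 0.31 (0.21 to 0.42), IAP 0.32 (0.18 to 0.46) and the leukaemia virus-like group -0.24 (-0.36 to -0.12) without them. The place of ORR1 above 0 over all lengths therefore rested on contained reads, and that of VL30 and IAP did not. Among those of ORR1 the printed ORR1E read alone had 483 and 1145 reads.

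Among the other MaLR elements, the MT kind had 5926 and 5109 reads (-0.10, -0.16 to -0.05), with MTD at -0.09 (1575 and 1375 reads), MTC at -0.35 (776 and 566) and MTE2b at -0.15 (559 and 467). The MT kind gave 0.26 (0.12 to 0.41) at 25 to 30 nt, and 0.24 (0.10 to 0.39) without contained reads. The MLT1 kind, shared by mouse and other mammals and thus older, had 2131 and 1736 reads (-0.19, -0.28 to -0.09), with MLT1D at -0.34 (255 and 187 reads) and MLT1A0 at -0.28 (211 and 161) beside MLT1B. MERVL with its MT2 terminal repeats, an ERVL element known for its activity in early embryos, had 1335 and 1128 reads (-0.13, -0.25 to -0.02). Its names with most reads, MT2B, MT2A and MERVL_2A-int, lay between -0.09 and -0.08.

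The rodent names beginning with RMER had 4945 and 4094 reads over 35 names (-0.16, -0.22 to -0.10). RMER15 gave -0.20 (587 and 473 reads), RMER12 0.16 (342 and 355) and RMER19B -0.01 (288 and 265). The 92 names of other RLTR elements had 5923 and 5042 reads (-0.12, -0.18 to -0.07), with RLTR25B at -0.11 (661 and 567), RLTR44E at 0.04 (483 and 459) and RLTR15 at 0.02 (224 and 210). RLTR44E held its reads in 14 distinct sequences, 99.8% of them contained. The MMERGLN group had 2026 and 1691 reads (-0.15, -0.25 to -0.06), 85.5% of them contained, and gave -0.35 (-0.60 to -0.09) without those.

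The smallest groups had wide intervals. ETn and MusD, which still transpose in laboratory mice, had 473 and 403 reads (-0.12, -0.32 to 0.07), of which the internal region ETnERV2-int had 274 and 217 and MMETn-int 81 and 52. MYSERV had 269 and 229 reads (-0.12, -0.38 to 0.14), led by MYSERV16_I-int with 117 and 102. BGLII had 211 and 138 reads (-0.50, -0.82 to -0.19), most of them from BGLII_B (92 and 58) and BGLII (82 and 57), and gave -0.71 (-1.12 to -0.30) without contained reads.

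The number of LTR reads fell from 15 nt, where they were 21% of wild type and 21.9% of Ago2ADH LTR reads, without a peak at 21 to 23 nt. Reads of 15 to 18 nt, shorter than the fraction named in the labels, made up 59.1% (58.6 to 59.6) and 57.3% (56.8 to 57.9), those of 21 to 23 nt 13.2% and 13.3%, and those of 25 to 30 nt 11.5% (11.2 to 11.8) and 13.6% (13.3 to 14.0). In the miRNA class of the same libraries 85.8% and 90.1% of reads were 21 to 23 nt long. Without contained reads the LTR level was nearly flat from 15 to 18 nt and declined above, but short reads are contained more often by construction.

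**Figure D3:**
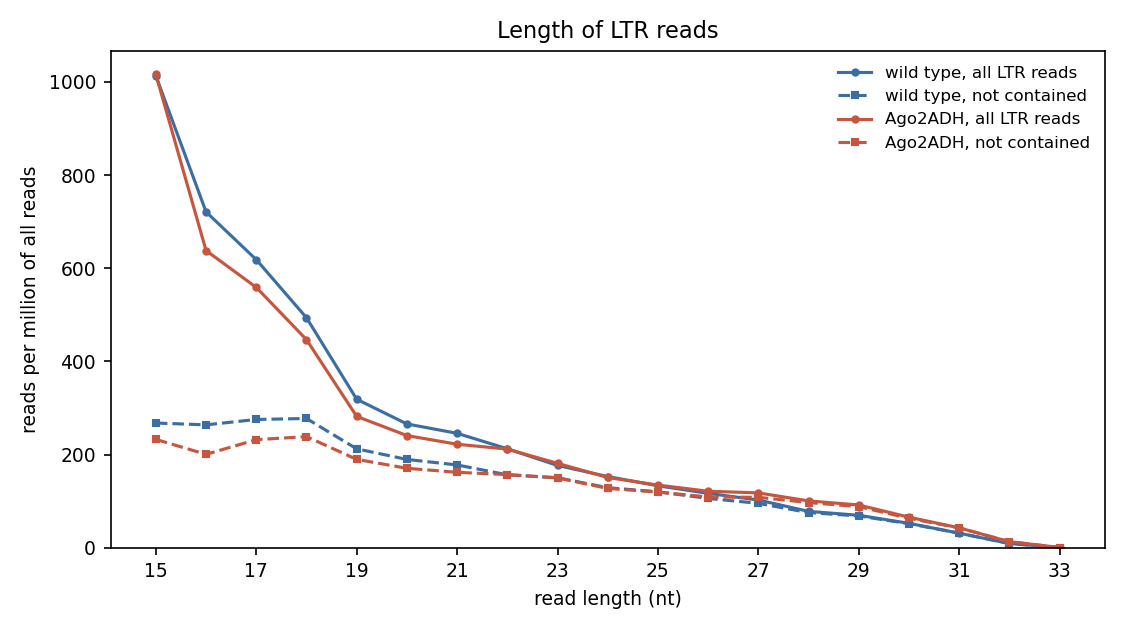
LTR reads (RPM) by read length in nt, for wild type (blue) and Ago2ADH (red), 1 library each. Solid lines are all LTR reads, which fall steeply from 15 nt, and dashed lines are reads contained in no longer read of another class, which lack that rise below 19 nt, where a longer read to contain them is most often possible.

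The elements also differed in length. Reads of 19 nt or longer were 73.5% of VL30, 71.0% of IAP and 79.3% of murine leukaemia virus-like reads, but 47.3% of MT, 40.1% of ORR1 and 9.90% of MMERGLN reads. Reads of 25 to 30 nt were 26.1%, 23.5% and 26.4% of the first 3 groups, against 14.2% and 10.9% of MT and ORR1.

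The ratio between libraries changed with length, for LTR as for the other repeats. At 15 to 18 nt the LTR log2 ratio was -0.10 (-0.13 to -0.07), at 21 to 23 nt -0.05 (-0.10 to 0.01) and at 25 to 30 nt 0.19 (0.13 to 0.25). At 25 to 30 nt LINE gave 0.37 (0.34 to 0.40), SINE 0.33 (0.29 to 0.38) and DNA transposons 0.34 (0.19 to 0.50), while fragments of RefSeq transcripts gave -0.03 and all reads -0.05. The value of all reads includes the miRNA class, which had 124544 and 26494 reads at this length (-2.12). RefSeq fragments also changed with length, from -0.25 at 15 to 18 nt to 0.50 (0.47 to 0.53) at 31 to 33 nt. LTR reads gave 0.46 (0.24 to 0.68) at 31 to 33 nt, so a ratio that rises with length was not particular to repeats. VL30, IAP and the leukaemia virus-like group were therefore set beside all LTR reads at equal length, without contained reads. At 25 to 30 nt VL30 gave 0.57 (0.38 to 0.76; 404 and 555 reads), above the LTR value of 0.18 (0.12 to 0.24). IAP gave 0.29 (0.02 to 0.55), an interval that holds the LTR value, and the leukaemia virus-like group -0.10 (-0.32 to 0.12), below it. At 21 to 23 nt IAP gave 0.66 (0.38 to 0.95; 179 and 263 reads from 356 distinct sequences, none with more than 8 reads), VL30 0.35 (0.15 to 0.55) and the leukaemia virus-like group -0.26 (-0.49 to -0.03), where all LTR reads gave -0.05. Also at 21 to 23 nt RMER gave -0.30 (-0.51 to -0.09) and ORR1 -0.20 (-0.39 to -0.01), near the leukaemia virus-like value. BGLII gave -1.19 (-2.35 to -0.13, 27 and 11 reads) and MYSERV 0.98 (-0.09 to 2.13, 12 and 22 reads), both from few reads. The other groups had intervals that hold 0 at this length. At 24 nt IAP gave 0.03 (-0.53 to 0.59) and the leukaemia virus-like group -0.03 (-0.45 to 0.38), level with the -0.02 of all LTR reads. VL30 gave 0.26 (-0.19 to 0.70) there. At 15 to 18 nt VL30 gave -0.03 (-0.31 to 0.25), IAP 0.19 (-0.10 to 0.49) and the leukaemia virus-like group -0.47 (-0.77 to -0.18). All LTR reads gave -0.26 at that length. At 19 to 20 nt the values were 0.10 (-0.17 to 0.37), 0.20 (-0.14 to 0.53) and -0.45 (-0.75 to -0.16), against -0.16 for all LTR reads. Of these length ranges, VL30 and IAP were thus clear of 0 at 21 to 23 and 25 to 30 nt only.

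**Figure D4:**
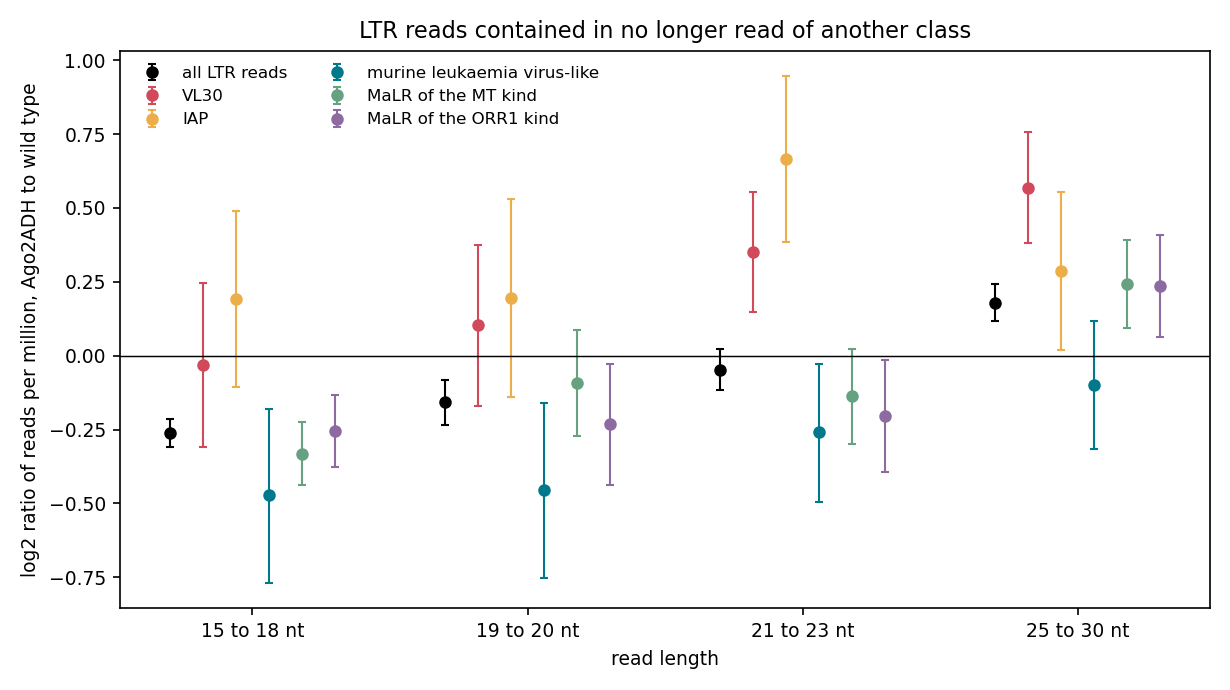
Log2 ratio of RPM, Ago2ADH to wild type, by read length for LTR reads contained in no longer read of another class, with exact 95% counting intervals. At 25 to 30 nt VL30 (0.57) lies above all LTR reads (0.18) and the murine leukaemia virus-like group (-0.10) below, and at 21 to 23 nt IAP (0.66) is highest of the groups drawn.

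A run of LTR reads ended in CCA, the bases that a cell adds to the 3′ end of every mature tRNA and that nuclear tRNA genes of mammals do not encode. These were 2435 wild type and 2611 Ago2ADH reads, 6.65% (6.40 to 6.91) and 7.99% (7.70 to 8.29) of LTR reads, against 1.17% and 1.14% of LINE, 3.0% and 3.19% of SINE and 2.25% and 2.21% of DNA transposon reads. Their level was 320 and 371 RPM (log2 ratio 0.21, 0.13 to 0.29). Without RLTR1B-int the counts were 2082 and 2053 (0.09, 0.00 to 0.18), a subset chosen after the data were seen. They were most frequent at 16 nt (12.9% and 18.3%), 17 nt (13.5% and 15.7%) and 18 nt (9.59% and 11.2%), and made up 1.80% and 3.01% at 22 nt.

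The CCA reads came from few names. They were 96.2% of the reads of RLTR44E, 94.2% of RLTR44C, 79.2% of LTRIS_Mm and 44.5% of RLTR6_Mm. The bases before the CCA equal those of reads annotated to tRNA-Tyr for RLTR44E, tRNA-Asn for RLTR44C, tRNA-Ile for LTRIS_Mm, tRNA-Gly for RLTR6_Mm and tRNA-Arg for the ORR1D1 read. The LTRIS_Mm read of 18 nt, with 76 and 77 reads, matched 649 genomic places with its CCA included. The RLTR6_Mm read of 17 nt, from the terminal repeat of VL30, had 66 and 79 reads at 9 places. The CCA form of the RLTR1B-int read lies in a ribosomal read, so that an end in CCA alone does not mark a tRNA fragment. Among the 7 names with 200 or more such reads the log2 ratios went both ways, from -0.88 for ORR1D1 (133 and 67 reads, -1.33 to -0.45) to 0.77 for RLTR1B-int (353 and 558 reads, 0.57 to 0.97).

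Other short RNAs of known genes were found under LTR names. Matched base for base to GENCODE transcripts of short non-coding genes, 969 LTR sequences with 2074 and 2577 reads lay within such a gene. Those in mitochondrial ribosomal RNA had 641 and 1294 reads (84.3 and 184 RPM, log2 ratio 1.12, 0.98 to 1.26). The printed ORR1E read alone had 483 and 1145 of these, so that most of the difference lay in 1 sequence. The most sequences, 568, lay in genes of the biotype misc_RNA (672 and 553 reads, -0.17, -0.34 to -0.01). Those in mitochondrial tRNAs (275 and 267 reads, 0.07, -0.18 to 0.31) and in snoRNAs (463 and 433 reads, 0.01, -0.18 to 0.20) differed by less than counting error.

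A microRNA hairpin was found within an LTR name. The hairpin Mir3105 (RefSeq, GRCm38.p6, chromosome 7, 144009254 to 144009338, plus strand) has both of its arms among the reads named MTD, a MaLR terminal repeat, and the table holds no reads of this name in its miRNA class. The RefSeq mature sequences and the most abundant reads are shown to compare their ends, with the seed (bases 2 to 8) in capitals.

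miR-3105-5p, RefSeq: aGAGCAAGcccguaagcagcgu
5p read: aGAGCAAGcccgtaagcagcgt
miR-3105-3p, RefSeq: aCUGCUUAugagcuugcacucc
3p read: aCTGCTTAtgagcttgcactcc

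The 5p read had 36 wild type and 27 Ago2ADH reads (4.74 and 3.83 RPM) and the 3p read 16 and 14 (2.11 and 1.99 RPM), both with 1 genome match and with the length and ends of the RefSeq entries. Both count as contained, in longer reads without annotation that held 20 and 2 reads in sum, fewer than the LTR reads themselves. So containment also takes in longer forms of the same small RNA. In all, 26 distinct LTR reads with 82 and 76 reads lay in the hairpin (10.8 RPM in each library, log2 ratio -0.00, -0.47 to 0.47), and 86.7% of these reads were 21 to 23 nt long. They were 27.1% of all MTD reads of that length. This was the LTR-named hairpin with most reads: 101 LTR sequences with 161 and 158 reads lay in RefSeq hairpins of any name.

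First bases were spread over all 4 letters. Reads began with U in 26.8% (26.3 to 27.2) of wild type and 27.1% (26.7 to 27.6) of Ago2ADH LTR reads, with A in 29.0% and 29.7%, with G in 26.3% and 23.6% and with C in 18% and 19.5%. At 25 to 30 nt, the length of most piRNAs, 28.5% and 27.9% began with U, where U was 26.1% of all bases of these reads. Base 10 was A in 24% and 22.6% of them, where A was 24.9% of all bases. Primary piRNAs begin mostly with U, and their secondary partners carry A at base 10.

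Reads that pair with each other were few. Of the LTR reads, 1172 sequences (2.71%) had a complementary LTR read that overlaps it by 15 or more bases counted from both 5′ ends. Within their own class 8.74% of LINE and 4.23% of SINE sequences had such a partner. By reads the shares were 3.67% for LTR, 55.2% for LINE and 4.91% for SINE. The number of LTR pairs fell steadily with the overlap, from 609 at 15 bases to 116 at 19, 89 at 20 and 60 at 21, without a local maximum. A piRNA amplification loop gives pairs that overlap by 10 bases, a length not searched here.

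Fragments of the mRNAs of silencing factors were compared from 3 lists. Of 25 genes of endogenous retrovirus silencing, 24 had reads and 8 had enough for the size rule, of which 0 were called, against 0.511% lower and 0.391% higher among all 3329 RefSeq genes with enough reads. The median log2 ratio of the 8 genes was -0.14, against 0.00 for the 3329. The DNA methyltransferase Dnmt3a had 158 and 118 reads (-0.31, -0.67 to 0.04), the heterochromatin protein gene Cbx5 132 and 134 (0.13, -0.23 to 0.49), the chromatin remodeller Atrx 105 and 113 (0.22, -0.18 to 0.61) and Atf7ip, a partner of Setdb1, 112 and 96 (-0.11, -0.52 to 0.29). Setdb1 and Trim28 had 76 and 94 reads over both libraries, too few for the rule.

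Of 11 symbols of the Dicer and Argonaute list, which holds Drosha under its older and newer symbol, 4 had enough reads and none was called. Eif2c2, the older symbol of Argonaute 2, had 229 and 318 reads (30.1 and 45.1 RPM, 0.58, 0.33 to 0.83), Dgcr8 291 and 317 (0.23, -0.00 to 0.47), Dicer1 98 and 94 (0.05, -0.37 to 0.47) and Rnasen, the older symbol of Drosha, 81 and 43 (-0.80, -1.37 to -0.25). The 12 genes of the piRNA pathway had 39 reads in each library in sum, and none had enough for the rule. Fragments of an mRNA in a small RNA library do not give the level of the mRNA.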

How the data were processed

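Small RNA of fetal liver was sequenced from 1 wild type and 1 Ago2ADH library. The authors deposited 1 table of distinct reads with a count per library, the number of genome matches (a count of places in the genome) and 1 annotation per read. An aligner, genome build or repeat track is not given in the sources used here. Counts are not normalised, and reads per 1000000 reads of the library (RPM) were computed from them. Ratios carry exact conditional binomial intervals and shares Clopper-Pearson intervals, both at 95%. The size rule needs 100 reads over both libraries, a ratio of 0.5 or less or of 2 or more, and an interval without equality. The code of the rule was tested on simulated counts. Groups of elements were formed by the start of the repeat name, where RLTR1, RLTR4 and RLTR6 stand for these and their lettered forms and not for RLTR10 or RLTR44. A read was contained where it lay whole within a longer read of another class. This measure was chosen after the data were seen. Named in the text are the 12 LTR names with most reads, the 3 names with most reads of each group, calls by the size rule, and the 4 most read genes of each list with enough reads. Other names were chosen after their values were seen. The members and lists were chosen with earlier results of these data known. Alternatives changed the scaling (miRNA reads, repeat reads, median of ratios, TMM in edgeR 4.0.16), the reads kept and the limits. Python 3.11.15, pandas 2.3.3 and SciPy 1.17.1 were used. Sequences of 3 LTR reads that also occur in cloning vectors are not printed.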

Additional observations from a re-analysis of the deposited data

How the results depend on the processing

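No paired analysis was possible because there is 1 library per genotype, and leaving out a replicate is not possible either. Results are given as the log2 ratio of all LTR reads, the number of the 4 families and 13 groups with an interval clear of 0, and the number of names or sequences called. The LTR ratio of -0.05 was -0.16 per miRNA reads and -0.083 per repeat reads, -0.077 without the 10 LTR sequences with most reads, -0.087 without contained reads, 0.0082 for reads of 19 nt or longer and 0.19 for 25 to 30 nt. The direction of the LTR total thus depends on read length. Families with a clear interval went from 3 to 1 with 1 genome match or with distinct sequences counted once, and to 0 at 19 nt or longer. For 25 to 30 nt 2 were clear, both higher, against 3 lower with all reads. Groups went from 11 (8 lower, 3 higher) to 7 at 20 to 24 nt (4 lower, 3 higher), 4 at 25 to 30 nt (0 lower, 4 higher), 2 with 1 genome match (2 lower, without VL30 or IAP) and 6 at 19 nt or longer (4 lower, 2 higher). VL30 and IAP kept positive and the leukaemia virus-like group negative ratios under all 11 alternatives (0.17 to 0.59, 0.04 to 0.42 and -0.50 to -0.08, main value included). RMER (-0.27 to -0.02) and BGLII (-0.71 to -0.04) also stayed below 0. The 4 scalings shift every ratio by -0.11 to 0.01, too little to change the signs of the main ratios of these groups. Scalings were not combined with the other alternatives, of which IAP with 1 genome match lay nearest to 0 (0.04, -0.51 to 0.58). The other alternatives draw on overlapping reads of the same 2 libraries. Names called went from 1 to 2 per miRNA reads, 0 at 20 to 24 nt, 0 at 25 to 30 nt (RMER21A 0.11 there, -2.79 to 3.01), 0 with distinct sequences, 0 without contained reads, 2 at a minimum of 50 reads, 0 at 500, 16 with no minimum, 14 at a 1.5-fold limit (11 lower, 3 higher) and 0 at 3-fold. Fewer names have enough reads where reads are left out, which by construction lowers these counts. Sequences called went from 4 to 10 at a minimum of 50, 33 at 20 and 1 at a 3-fold limit, and without contained reads no sequence had enough. The share called over all names or sequences was computed for the main rule only. The counts at other settings are therefore not a result about LTR. By intervals alone, the repeat names of all classes also lay below 0 more often than above (26% and 13.3%). The share of 25 to 30 nt reads (11.5% and 13.6%) was 14.7% and 17.1% over distinct sequences, 12.5% and 15.1% without the top 10, 24.6% and 28.9% with 1 match and 19.5% and 23.4% without contained reads. The share with first base U (26.8% and 27.1%) was 27.6% and 28.2%, 28.0% and 28.8%, 26.4% and 29.0%, and 27.3% and 27.8% in the same order. The share with 1 match (21.6% and 21.5%) was 25.9% and 26.8% over distinct sequences, 22.9% and 23.7% without the top 10 and 32.4% and 34.4% without contained reads. The causes of these changes were not tested, other than the fewer names and sequences with enough reads. Containment and the limit at 19 nt were chosen after the data were seen. With 1 library per genotype the intervals leave out all variation between animals and libraries. Strand and position of LTR reads were not analysed here.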
